A study of Homo sapiens with 3 samples.

Results

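The genes described here are the 3 D-type cyclins (CCND1, CCND2 and CCND3), their partner kinases CDK4 and CDK6, the kinase inhibitors CDKN1A, CDKN1B and CDKN2C, and RB1. They were taken by symbol and make up 9 of the 43913 genes listed in the counts. MM.1S is an established multiple myeloma line, and HS-5 is a stromal cell line made from human bone marrow. Single cells were sequenced by Drop-seq, which pairs each cell with a barcoded bead in a droplet and counts each captured molecule of RNA once, as a unique molecular identifier (UMI). The series has 3 libraries, 1 for MM.1S cells alone, 1 for HS-5 cells alone and 1 for both lines after 4 h together, and no drug or genetic change is labelled in any of them. The labels and methods give 4 h, while figure legends of the study give another duration. With 1 library per condition no difference could be tested. Every interval below is a 95% interval that covers counting error only.

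D-type cyclins are the subunits that activate CDK4 and CDK6 when a cell leaves G1 phase. The active kinases phosphorylate the retinoblastoma protein, the product of RB1, which then lets go of E2F transcription factors, so that genes for DNA replication are transcribed. CDKN1A (p21) and CDKN1B (p27) bind cyclin and kinase complexes, and CDKN2C (p18, an INK4 protein) binds CDK4 and CDK6 directly. Myeloma cells typically carry a high level of 1 D-type cyclin. MM.1S is known for a translocation that places MAF under the immunoglobulin heavy chain locus, and CCND2 is a known MAF target. HS-5 was made with the papillomavirus oncogenes E6 and E7, and E7 is known to bind the retinoblastoma protein and E6 to bring about the loss of p53.

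The D-type cyclins share a short stretch close to the start of the protein, leucine, cysteine and glutamate with 1 residue between each, by which they touch the retinoblastoma protein. The first 60 coding bases of each cyclin are shown so that the shared stretch, and how far the genes differ around it, can be seen. They come from GENCODE release 29 on GRCh38, read 5′ to 3′ on the coding strand, at chr11:69641314-69641373 (plus strand) for CCND1, chr12:4274041-4274100 (plus strand) for CCND2 and chr6:41941590-41941649 (minus strand) for CCND3. Each stretch lies in 1 exon, and capitals mark the 15 bases that encode the motif, at coding bases 13 to 27 in CCND1 and 7 to 21 in CCND2 and CCND3.
CCND1: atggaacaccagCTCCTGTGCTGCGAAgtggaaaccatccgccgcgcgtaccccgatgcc
CCND2: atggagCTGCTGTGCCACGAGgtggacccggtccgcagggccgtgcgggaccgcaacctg
CCND3: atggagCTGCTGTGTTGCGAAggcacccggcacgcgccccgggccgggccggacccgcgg
Over the coding sequence, the identity was 68.5% between CCND1 and CCND2, 64.4% between CCND1 and CCND3, and 70.0% between CCND2 and CCND3. The longest run of bases that any 2 of them share was 23 bases, between CCND1 and CCND2.

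The libraries held 3865 to 3994 barcodes and 3981392 to 10433182 UMIs. Cells with at least 200 genes were kept. Coculture cells were given to a line by 72 genes at least 50 times higher in MM.1S and 222 at least 50 times higher in HS-5 monoculture, after the 9 genes and every listed pathway and marker gene had been left out of that choice. CCND1 and MAF, among others, would have met the limit. This gave 1626 MM.1S and 2107 HS-5 cells, while 112 cells (2.90%) with UMIs of both lines and 11 with too few such UMIs were left out. The median depth was 2201 UMIs per cell in MM.1S monoculture, 671 in MM.1S cells of the coculture, 971.5 in HS-5 monoculture and 957 in HS-5 cells of the coculture. Pairs of libraries shared 39 to 76 barcodes, and 38 were in all 3; leaving these cells out moved no call of a member. Of 10 plasma cell markers, 9 exceeded 10 CPM (UMIs per 1000000 UMIs) in both groups of MM.1S cells, and of 11 stromal markers 9 did so in both groups of HS-5 cells. Of the plasma cell markers, 3 and 4 also exceeded 10 CPM in HS-5 monoculture and coculture, and SDC1 was higher in HS-5 monoculture (135 CPM) than in MM.1S monoculture (38.1 CPM). TAGLN and COL3A1 were at most 4.88 CPM in all 4 groups, and FN1, a stromal marker, had 810 CPM in MM.1S monoculture and 2230 CPM in MM.1S cells of the coculture. Markers of T cells, monocytes and endothelial cells summed to at most 17.3 CPM in any group.

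The lines used different D-type cyclins. CCND2 (chromosome 12, 4273772 to 4305350, plus strand) had 825 CPM in MM.1S monoculture (95% Poisson interval 808 to 843, 8612 UMIs), 1807 CPM in MM.1S cells of the coculture (1735 to 1881), 140 CPM in HS-5 monoculture (131 to 150) and 121 CPM in HS-5 cells of the coculture (108 to 136). CCND1 (chromosome 11, 69641087 to 69654474, plus strand) had 23.8 CPM (20.9 to 26.9), 70.5 CPM (56.9 to 86.3), 1484 CPM (1453 to 1514) and 1030 CPM (990 to 1070) in the same order. Each of these levels lay outside the intervals of the other line's groups.

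CCND3 (chromosome 6, 41934933 to 42050357, minus strand), the D-type cyclin best known from lymphoid cells, was the lowest of the 3 in all 4 groups by CPM. It had 15.1 CPM in MM.1S monoculture (12.9 to 17.7), 18.9 CPM in MM.1S cells of the coculture (12.3 to 28.0), 58.0 CPM in HS-5 monoculture (52.1 to 64.3) and 36.6 CPM in HS-5 cells of the coculture (29.5 to 44.9). The levels per kb of the longest transcript put CCND3 (6.33 CPM per kb) above CCND1 (5.52 CPM per kb) in MM.1S monoculture. They also put it above CCND2 in HS-5 monoculture (24.2 against 21.6 CPM per kb). That order rests on the division by length alone.

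As a share of all D-type cyclin UMIs, CCND2 made up 95.5% in MM.1S monoculture (exact Clopper-Pearson interval 95.05 to 95.92%) and 95.3% in MM.1S cells of the coculture (94.4 to 96.1%). CCND1 made up 88.2% in HS-5 monoculture (87.6 to 88.8%) and 86.7% in HS-5 cells of the coculture (85.4 to 87.9%). Each line thus had 1 cyclin with over 85% of its D-type cyclin UMIs, and that cyclin was the same alone and in coculture. Per kb of the longest transcript, the shares of the leading cyclin were 91.5%, 92.0%, 88.3% and 87.5% in the same order. Each captured molecule is counted once, and whether the UMIs of these genes scale with transcript length was not tested.

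**Figure D1:**
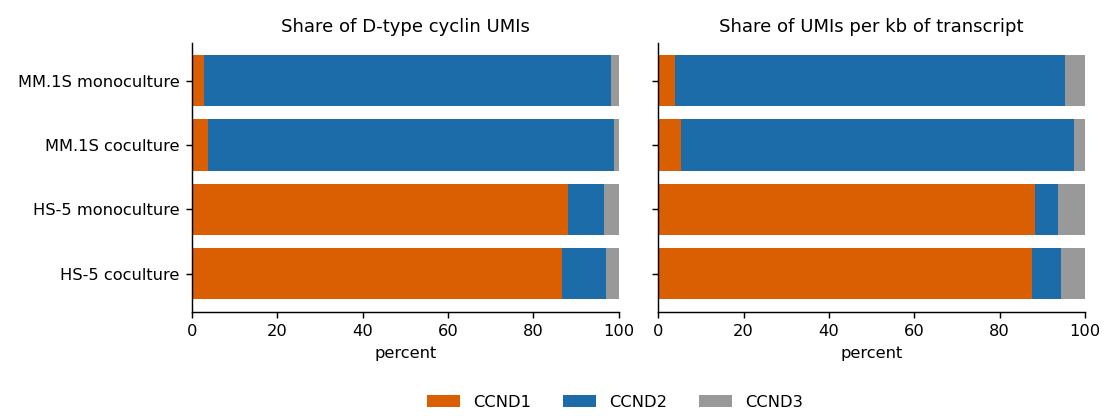
Bars show CCND1, CCND2 and CCND3 as percent of the D-type cyclin UMIs in each line and culture, as counted (left) and per kb of transcript (right), 1 library per culture. CCND2 fills 95.5% and 95.3% of the MM.1S bars as counted, and CCND1 88.2% and 86.7% of the HS-5 bars.

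Of the 8 members that reached 10 CPM on average over the monocultures, 4 were past 2-fold, beside 53.5% of the 8734 genes compared. In HS-5, 3 were higher than in MM.1S, beside 38.1%, and 1 was lower, beside 15.3%. The higher genes were CCND1, with a log2 ratio of 5.91 (interval 5.78 to 6.15), CDKN2C, with 3.59 (3.46 to 4.71), and CCND3, with 1.87 (1.66 to 2.22). The lower gene was CCND2, with a log2 ratio of -2.55 (-2.66 to -2.46). The ratios have a pseudocount of 1 CPM, and the intervals come from the counts without it. The median log2 ratio over all genes was 0.56, and it moved to 0.06 with TMM factors and to -0.05 with median-of-ratios factors, under which the 4 genes kept their direction and their 2-fold difference.

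CDK6 (chromosome 7, 92604921 to 92836594, minus strand) was the kinase of the pair with counts to compare. It had 87.3 CPM in MM.1S monoculture (81.7 to 93.2), 267 CPM in MM.1S cells of the coculture (240 to 297), 75.5 CPM in HS-5 monoculture (68.8 to 82.7) and 59.1 CPM in HS-5 cells of the coculture (49.9 to 69.5). Among the members, CDK6 stood next to CCND2 in both MM.1S groups by CPM. Per kb of the longest transcript, CDK6 ranked 4 in MM.1S monoculture, below CDKN1B and CDKN1A, and 2 in MM.1S cells of the coculture. The log2 ratio of HS-5 over MM.1S in monoculture was -0.21 (-0.37 to -0.05), and it ranged from -0.82 to -0.05 over the alternatives.

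CDK4 (chromosome 12, 57747727 to 57756013, minus strand) was counted in 25 UMIs in MM.1S monoculture (2.40 CPM), in 2 UMIs in HS-5 monoculture, in 1 UMI in HS-5 cells of the coculture and in none of the 1319884 UMIs that MM.1S cells had in coculture. A count of 0 there allows up to 2.27 CPM (3 counts). All 1000 of the last bases of its longest transcript overlap TSPAN31, which lies on the opposite strand and had 23.0, 15.2, 9.77 and 9.65 CPM in MM.1S monoculture, MM.1S coculture, HS-5 monoculture and HS-5 coculture. Whether the counting used strand and how it treated overlapping genes is not given in the sources used here, so the level of CDK4 is uncertain and no fold is given.

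Of the 3 inhibitors, CDKN2C was past 2-fold apart between the lines, and CDKN1A and CDKN1B were not. CDKN2C (chromosome 1, 50960745 to 50974633, plus strand) had 2.40 CPM in MM.1S monoculture (1.55 to 3.54), 5.30 CPM in MM.1S cells of the coculture (2.13 to 10.9), 39.9 CPM in HS-5 monoculture (35.0 to 45.2) and 41.4 CPM in HS-5 cells of the coculture (33.8 to 50.2). The intervals of the HS-5 groups lay wholly above those of the MM.1S groups. CDKN1B (chromosome 12, 12715058 to 12722371, plus strand) had 40.5, 33.3, 23.0 and 24.1 CPM in the same order, and a log2 ratio of HS-5 over MM.1S in monoculture of -0.79 (-1.11 to -0.54). That ratio was -1.27 with TMM factors and -1.37 with median-of-ratios factors, past 2-fold.

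CDKN1A (chromosome 6, 36676460 to 36687339, plus strand), a p53 target, had 21.3 CPM in MM.1S monoculture (18.6 to 24.3), 34.9 CPM in MM.1S cells of the coculture (25.5 to 46.5), 32.1 CPM in HS-5 monoculture (27.8 to 36.9) and 29.8 CPM in HS-5 cells of the coculture (23.4 to 37.4). Its log2 ratio of HS-5 over MM.1S in monoculture was 0.57 (0.31 to 0.88), beside a median of 0.56 over all genes, and it was 0.10 and 0.00 with TMM and median-of-ratios factors. The 3 inhibitors together had 64.2 CPM in MM.1S monoculture (59.4 to 69.3) and 94.9 CPM in HS-5 monoculture (87.4 to 103). CDKN2C gave 2.40 CPM of the first sum and 39.9 CPM of the second. The sums were not rescaled with TMM or median-of-ratios factors, so no difference between the lines is read from them. CDKN2A, another INK4 gene, which also encodes p14ARF, was named after its values were seen. It had 396 CPM in MM.1S and 290 CPM in HS-5 monoculture.

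RB1 (chromosome 13, 48303726 to 48599436, plus strand), which encodes the kinases' target, had 19.9 CPM in MM.1S monoculture (17.3 to 22.8) and 20.4 CPM in HS-5 monoculture (16.9 to 24.2). The log2 ratio was 0.03 (-0.30 to 0.36), so no difference was detectable at this depth, but it was -0.44 with TMM factors and -0.53 with median-of-ratios factors. In the coculture, RB1 had 34.9 CPM (25.5 to 46.5) on the MM.1S side and 18.1 CPM (13.2 to 24.2) on the HS-5 side.

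**Figure D2:**
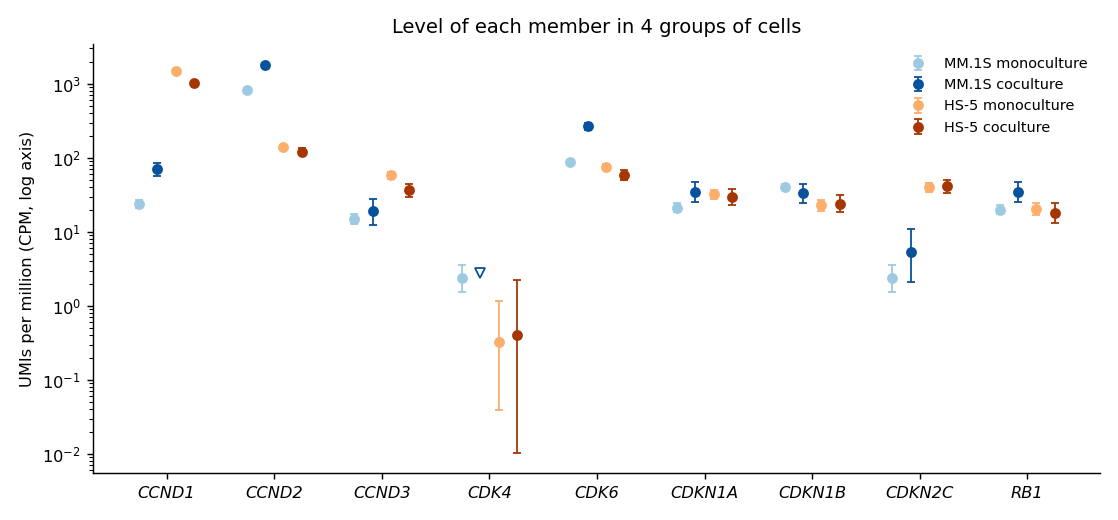
Points show the CPM of each gene on a log axis in 4 groups of cells, 1 library per culture, and bars are 95% Poisson intervals that cover counting error only. The open triangle is the upper bound of the interval for CDK4, which had 0 UMIs in MM.1S cells of the coculture, while CCND2 leads in MM.1S (825 and 1807 CPM) and CCND1 in HS-5 (1484 and 1030 CPM).

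After 4 h of coculture the leading cyclin of MM.1S cells and CDK6 were higher. Of the 7 members that reached 10 CPM on average, 3 were past 2-fold, beside 24.6% of 7829 genes. All 3 were higher, beside 18.9%, and none was lower, beside 5.68%. CDK6 had a log2 ratio of 1.60 (1.43 to 1.79), CCND1 of 1.53 (1.21 to 1.92) and CCND2 of 1.13 (1.06 to 1.20). The median over all genes was 0.24, and it moved to -0.06 with TMM factors and to -0.11 with median-of-ratios factors.

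CCND2 then had a log2 ratio of 0.82 and 0.78, under 2-fold, and it had 0.86 when the trend with transcript length was taken out. CDK6 and CCND1 stayed past 2-fold under each of these, with CDK6 at 1.26 to 1.31 and CCND1 at 1.19 to 1.40. Longer transcripts were higher in MM.1S cells of the coculture. The median log2 ratio was 0.53 in the decile of longest transcripts, which holds CDK6 (11612 bases), and -0.08 in the shortest. Among genes of like length, CDK6 stood at the 93.0th percentile and CCND2 (6480 bases) at the 78.8th.

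RB1 had a log2 ratio of 0.78 (0.31 to 1.27) in MM.1S cells and CDKN1A of 0.69 (0.22 to 1.18), and both were under 2-fold. RB1 passed 2-fold at 1.09, when cells with many genes or a mitochondrial share of 5% or more were left out. CCND3 had a log2 ratio of 0.30 (-0.35 to 0.94) and CDKN1B of -0.27 (-0.76 to 0.17), so neither difference was beyond counting error. CDKN2C was too low to be compared.

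The CCND1 level of MM.1S cells in coculture was measured beside that of HS-5 RNA carried in their droplets. Other HS-5 genes gave a share of 1.82% of HS-5 RNA in these cells (2.44% and 1.21% in separate sets of genes), which would carry 18.8 CPM of CCND1. With these taken off and the rest scaled back to 1000000 UMIs, 52.6 CPM were left, a log2 ratio of 1.11. At 2.44%, 46.5 CPM were left, a log2 ratio of 0.94. At the 3.08% given by genes 20-fold apart, 39.9 CPM were left, a log2 ratio of 0.72, and both ratios were under 2-fold. That 3.08% is the mean of 3.90% and 2.27% in separate sets of genes. No subtraction was made at 3.90%, which would leave less CCND1. CCND1 stood at 6.84% of its level in HS-5 cells of the coculture, against a median of 2.41% over HS-5-specific genes (quartiles 1.17 and 3.91%). With a stricter limit on mixed cells the log2 ratio was 1.45, and the part of free RNA beyond this estimate was not tested.

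In HS-5 cells, none of the 8 members was past 2-fold in coculture, beside 3.02% of 8813 genes (1.21% higher and 1.8% lower). CCND3 had a log2 ratio of -0.65 (-1.01 to -0.33), CCND1 of -0.53 (-0.59 to -0.46), CDK6 of -0.35 (-0.63 to -0.08) and CCND2 of -0.21 (-0.40 to -0.02). All 4 lay below 0 beyond Poisson counting error, and the median over all genes was -0.03. Longer transcripts were lower in HS-5 cells of the coculture. The median log2 ratio was -0.20 in the decile of longest transcripts and 0.34 in the shortest. Among genes of like length, CCND3 stood at the 7.46th percentile, CCND1 at the 12.8th, CDK6 at the 33.2nd and CCND2 at the 42.6th. CDKN1A had a log2 ratio of -0.10 (-0.51 to 0.28), CDKN1B of 0.07 (-0.39 to 0.52), CDKN2C of 0.05 (-0.29 to 0.39) and RB1 of -0.16 (-0.69 to 0.33), all within counting error. The CCND2 level of HS-5 cells in coculture was 95.1 CPM after free MM.1S RNA was subtracted, a log2 ratio of -0.55, and 82.0 CPM at the higher estimate, a log2 ratio of -0.77.

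**Figure D3:**
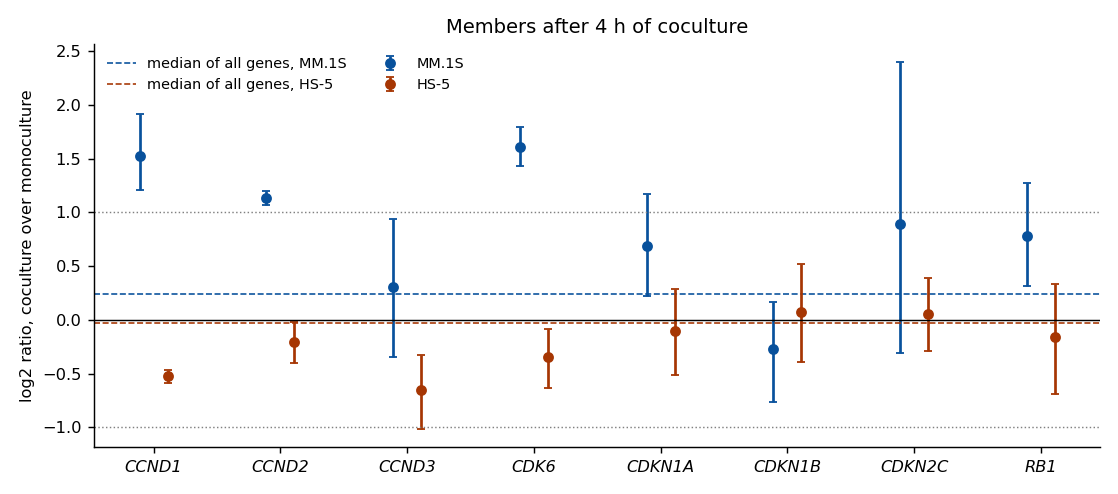
Points show the log2 ratio of coculture over monoculture for 8 members in MM.1S (blue) and HS-5 (red) cells, with exact 95% intervals for counting error, dashed lines at the median over all genes and dotted lines at 2-fold. CDK6 (1.60), CCND1 (1.53) and CCND2 (1.13) lie above 2-fold in MM.1S, and all 8 HS-5 points lie within 2-fold.

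The same UMIs were also counted by cell. With each cell thinned to 1000 UMIs, so that depth was equal, a CCND2 UMI was seen in 50.9% of the 3870 MM.1S cells cultured alone (exact Clopper-Pearson interval 49.3 to 52.5%) and in 79.9% of the 378 from the coculture (75.5 to 83.8%), where 1248 cells were too shallow to enter. Before thinning, the shares were 76.1% and 69.5%, at median depths of 2201 and 671 UMIs. With 500 UMIs per cell, 30.7% of 3947 and 58.8% of 1191 cells had one. Among HS-5 cells thinned to 1000 UMIs, 11.2% and 10.3% had a CCND2 UMI.

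A CCND1 UMI was seen in 72.0% of the 1802 HS-5 cells cultured alone (69.8 to 74.0%) and in 58.0% of the 1002 from the coculture (54.9 to 61.1%), and in 2.27% and 5.56% of MM.1S cells. Before thinning, the HS-5 shares were 75.5% and 58.3%. CDK6 was seen in 8.48% of MM.1S cells cultured alone (7.62 to 9.40%) and 22.2% from the coculture (18.1 to 26.8%), but in 6.77% and 5.69% of HS-5 cells. No D-type cyclin UMI was seen in 47.3% (MM.1S monoculture), 18.8% (MM.1S coculture), 23.5% (HS-5 monoculture) and 36.9% (HS-5 coculture) of cells.

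CCND1 and CCND2 were both counted in 1.32% (0.983 to 1.73%) of cells of the MM.1S monoculture, 4.76% (2.85 to 7.42%) of MM.1S coculture cells, 8.27% (7.04 to 9.64%) of the HS-5 monoculture and 6.69% (5.22 to 8.41%) of HS-5 coculture cells. Among cells with the minor cyclin, the share with the leading one did not differ from that of all cells of the group beyond its interval in any of the 4 groups. Of 202 HS-5 monoculture cells with a CCND2 UMI, 149 (73.8%, 67.1 to 79.7%) had a CCND1 UMI, against 72.0% of all cells there. Of 88 MM.1S monoculture cells with a CCND1 UMI, 51 (58.0%, 47.0 to 68.4%) had a CCND2 UMI, against 50.9% of all, and 18 of 21 did so in MM.1S coculture cells (85.7%, 63.7 to 97.0%, against 79.9%). CCND2 and CDK6 were both counted in 4.65% of the MM.1S monoculture and 17.5% of MM.1S coculture cells. One MM.1S monoculture cell held 74 CCND2 UMIs before thinning.

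**Figure D4:**
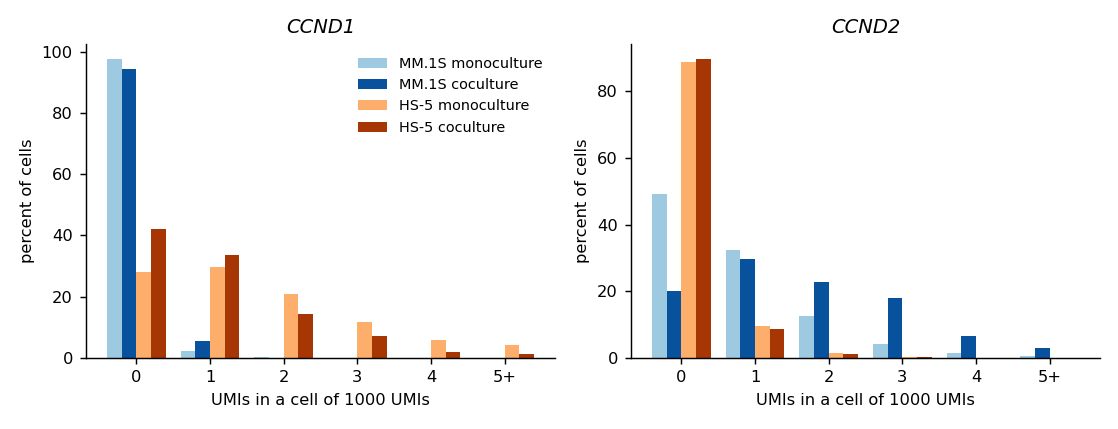
Bars show the percent of cells with 0 to 4 or at least 5 UMIs of CCND1 (left) and CCND2 (right) after each cell was thinned to 1000 UMIs, in 4 groups of cells. Of MM.1S cells in coculture, 20.1% had no CCND2 UMI against 49.1% in monoculture.

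The other genes of the pathway were compared by lists. Of 28 RB pathway partners, 24 could be compared between the monocultures, and 11 were past 2-fold higher and 1 lower in HS-5, beside 38.1% and 15.3% of all genes, with a median log2 ratio of 0.81 against 0.56 over all genes. The highest were E2F1 (3.59), CDKN2D (3.51) and E2F7 (3.25), and the lowest were RBL2 (-2.32), a relative of RB1, CDK7 (-0.77) and SKP2 (-0.76). In MM.1S cells of the coculture, 4 of 21 partners were past 2-fold higher and 2 lower, beside 18.9% and 5.68% of all genes, with a median of -0.08 against 0.24. The share of partners past 2-fold higher was thus near that of all genes in this comparison. CDC25A, a phosphatase that activates cyclin-dependent kinases, had 2.33, E2F4 1.63 and E2F2 1.61, and RBL2 had -2.09, TFDP2, a partner of E2F factors, -1.63 and CDK2 -0.62. In HS-5 cells of the coculture, none of 23 passed 2-fold, beside 3.02% of all genes, with CKS1B (0.93) highest and CDC25A (-0.79) lowest.

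E2F target and replication genes, which follow the release of E2F factors, numbered 25, all compared. Between the monocultures, 6 were past 2-fold higher and 1 lower in HS-5, beside 38.1% and 15.3% of all genes, and the median was 0.47 against 0.56, with RRM1 (2.89) highest and DUT (-1.33) lowest. In MM.1S cells of the coculture, 2 were past 2-fold higher, CLSPN (1.17) and RRM2 (1.02), and 1 was lower, TK1 (-1.40), beside 18.9% and 5.68% of all genes, with 20 above 0 and a median of 0.48 against 0.24 over all genes. In HS-5 cells of the coculture, none passed 2-fold, beside 3.02% of all genes, and the median was 0.05 against -0.03.

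Mitosis genes were higher in HS-5 monoculture for 18 of 25 past 2-fold, beside 38.1% of all genes, and the median was 1.58 against 0.56, with UBE2C (7.44), CENPE (4.78) and MKI67 (4.26) highest, and none past 2-fold lower. In MM.1S cells of the coculture, 1 of 23 was past 2-fold higher (MKI67, 1.05) and 3 lower (HMMR, -1.44, NUSAP1, -1.27, and CCNB2, -1.19), beside 18.9% and 5.68% of all genes, with a median of -0.23 against 0.24. In HS-5 cells of the coculture, 2 of 25 were past 2-fold lower, CENPE (-1.19) and CENPF (-1.16), beside 1.8% of all genes. The list showed no general fall there, with 13 above 0, 12 below and a median of 0.02 against -0.03. CCNB2 (0.56), UBE2C (0.41) and CCNB1 (0.38) were highest.

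Of the p53 targets, 15 could be compared between the monocultures. Of these, 5 were past 2-fold higher and 3 lower in HS-5, near the 38.1% and 15.3% of all genes, with TP53I3 highest (4.89, interval 5.61 to 10.5 without the pseudocount) and BTG2 lowest (-7.25, interval -12.3 to -7.41). Each of these had 2 UMIs in the lower line. In MM.1S cells of the coculture, 4 of 12 were past 2-fold higher, led by ZMAT3 (1.63) and GADD45A (1.58), and 1 was lower (BTG2, -1.71), beside 18.9% and 5.68% of all genes, and the median was 0.09 against 0.24. In HS-5 cells of the coculture, none of 13 passed 2-fold, beside 3.02% of all genes. Among MAF and 4 known MAF targets, MAF had 1097 CPM in MM.1S monoculture and 704 CPM in MM.1S cells of the coculture, a log2 ratio of -0.64, while CCND2 was higher. MAF was near 0 in HS-5 monoculture (3.58 CPM). NUAK1 (1.60) and CCR1 (1.45) were past 2-fold higher in MM.1S cells of the coculture, beside 18.9% of all genes. CX3CR1 (-1.01) was past 2-fold lower, beside 5.68%, and ITGB7 had -0.81 (interval -1.63 to -0.16), under 2-fold. Between the monocultures, NUAK1 was past 2-fold higher in HS-5, with a log2 ratio of 1.39 (1.16 to 1.75). ITGB7 (-4.68), CCR1 (-6.39) and CX3CR1 (-6.71) were past 2-fold lower there. Whether these genes follow MAF in these cells was not tested.

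Levels were also compared between cells with different amounts of cell cycle transcripts within each group. Cells with at least 3 UMIs of mitosis genes, of 1000, made up 19.8% of the MM.1S monoculture, 30.7% of MM.1S coculture cells, 71.4% of the HS-5 monoculture and 58.0% of HS-5 coculture cells. The MM.1S coculture value is over the 378 deepest of 1626 cells, and with 500 UMIs per cell the order in MM.1S turned, with 9.04% of 3947 cells in monoculture and 7.81% of 1191 in coculture, so no direction is read from it. In HS-5 the shares at 500 UMIs were 52.8% and 41.7%. CENPE and CENPF, past 2-fold lower in HS-5 cells of the coculture, are in the summed list, and shares without them were not computed. These are ranges of a sum and not cell types, and 610 of the 3870 MM.1S monoculture cells lay within 1 UMI of the limit. The part of free RNA in these ranges was not tested. Replication-range cells had at least 3 UMIs of replication genes and under 3 of mitosis genes. In MM.1S monoculture, CCND2 had 713 CPM in mitosis-range cells (654 to 775), 841 CPM in replication-range cells (787 to 899) and 772 CPM in cells under both limits (735 to 811).

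In MM.1S cells of the coculture, CCND2 had 1690 CPM, 1686 CPM and 1771 CPM in those ranges, and each lay above all 3 monoculture ranges. The higher CCND2 level in coculture was thus found in each range. In HS-5 monoculture, CCND1 had 1397 CPM in mitosis-range cells (1333 to 1463), 1734 CPM in replication-range cells (1593 to 1885) and 2000 CPM in cells under both limits (1807 to 2208). In HS-5 cells of the coculture, CCND1 had 847 CPM (774 to 925), 1089 CPM (966 to 1225) and 1226 CPM (1062 to 1407) in the same order. In both HS-5 groups CCND1 was thus lowest in the cells with most mitosis transcripts, where the intervals did not overlap those of cells under both limits.

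By their levels in the 4 groups, 3449 genes averaging 50 CPM or more were compared with each leading cyclin, by the root mean square difference of their log2 levels around each gene's own mean. Those most like CCND1 were FOSL1 (0.12), SGK1 (0.13), RASSF8 (0.15), ETS1 (0.16) and ANGPTL4 (0.17). FOSL1, RASSF8, ETS1 and ANGPTL4 were low in MM.1S, with 1.15 to 1.92 CPM in monoculture and 5.30 to 7.58 CPM in coculture. SGK1 had 5.56 and 21.2 CPM there. Free HS-5 RNA was not subtracted from these levels. Those most like CCND2 were REPIN1 (0.19), HLA-B (0.26), STS (0.26), SCARB1 (0.27) and CNDP2 (0.36). With 4 groups from 3 libraries, this likeness is a description.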

How the data were processed

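The 9 genes and the pathway lists were chosen with earlier results of these data known. The authors deposited whole-number UMI counts per gene and cell barcode for 3 Drop-seq libraries, without normalization. The submitters' processing notes name Cell Ranger 3.0.2, UMI-tools 1.0.0, STAR 2.5.3a, featureCounts 1.6.4, SAMtools 1.9 and the build GRCh38, with no order. The annotation, strand setting and choice of barcodes are not given in the sources used here.

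Cells with at least 200 genes were kept. Line-specific genes were at least 50 CPM in their own monoculture and at least 50 times higher there, leaving out the 9 genes and all listed pathway and marker genes. Coculture cells with at least 5 line-specific UMIs and an HS-5 share under 0.2 or over 0.8 were given to a line, and those between were left out as doublets; no other doublet caller was run. UMIs were summed per line and culture and scaled to CPM. Log2 ratios had a pseudocount of 1 CPM. A gene was compared where its mean was at least 10 CPM and was called past 2-fold. Poisson, Clopper-Pearson and conditional ratio intervals were exact. Nothing was tested, as each condition has a single library, and 1 UMI was worth 0.758 CPM in MM.1S cells of the coculture, the shallowest group. Cells were thinned to 1000 UMIs with a fixed seed. Free RNA was measured on line-specific genes that had not assigned the cells, which were split into separate sets. Transcript lengths and coding sequences came from GENCODE release 29.

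Named were the 9 genes, up to 3 highest and 3 lowest genes of each list in each comparison, and the 5 genes most like each leading cyclin; CDKN2A was added after its values were seen. On simulated counts for the MM.1S comparison, over 7829 genes, 100% of 200 changed genes had the right sign and 95.9% of intervals held the true value. These counts were drawn from the Poisson model that the intervals assume, so the fit of the intervals to the real counts was not tested. Alternatives covered cell limits, mixed-cell limits, free RNA, scaling (edgeR 4.0.16 TMM, DESeq2 1.42.0 size factors), pseudocounts, minimum levels, transcript length and thinning. Leaving out barcodes found in more than 1 library, and the higher estimates of free RNA, were chosen after seeing the data. Python 3.11.15, numpy 2.4.6, scipy 1.17.1, pandas 2.3.3 and R 4.3.3 were used.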

Additional observations from a re-analysis of the deposited data

Results flagged for a closer look

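Of the 9 genes, 3 differed from monoculture in opposite directions in the cells of the lines, each beyond its counting interval, and the difference between the lines was not tested, since each condition is 1 library. CCND1 had a log2 ratio of coculture over monoculture of 1.53 in MM.1S cells and -0.53 in HS-5 cells. CCND2 had 1.13 in MM.1S cells and -0.21 in HS-5 cells, where the interval reached -0.02. At 1000 UMIs per cell, the variance over mean of CCND2 UMIs in HS-5 cells was 1.27 alone and 1.23 in coculture. The interval treats UMIs as independent, so it may be too narrow here. CDK6 had 1.60 in MM.1S cells and -0.35 in HS-5 cells. Among genes of like transcript length, the HS-5 ratios stood at the 12.8th percentile for CCND1, the 42.6th for CCND2 and the 33.2nd for CDK6. The MM.1S ratios stood at the 90.8th, 78.8th and 93.0th in the same order. Over the 14 alternatives, CCND1 ranged from 0.72 to 1.70 in MM.1S and from -0.63 to -0.50 in HS-5. In the same order, CCND2 ranged from 0.78 to 1.25 and from -0.77 to -0.09, and CDK6 from 1.26 to 1.66 and from -0.53 to -0.19. None of the 14 subtracted the 3.90% of free RNA that 1 set of genes gave for MM.1S cells. Both monocultures are compared with cells of the same coculture library, and the median over all genes was 0.24 in MM.1S and -0.03 in HS-5 cells. MM.1S cells had a median of 2201 UMIs in monoculture and 671 in coculture, against 971.5 and 957 in HS-5 cells, and the part of depth in the difference was not tested.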

How the results depend on the processing

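No paired analysis was possible because each condition is 1 library. No member whose interval lay off 0 changed sign under any of the 14 alternatives that gave a log2 ratio. The 3 members past 2-fold in MM.1S cells of the coculture became 2 with TMM or median-of-ratios factors and with the length trend removed (without CCND2), 2 with a minimum of 50 CPM or free RNA subtracted at either higher estimate (without CCND1) and 4 with at most 2500 genes and under 5% mitochondrial UMIs per cell (with RB1). With a minimum of 50 CPM, the members past 2-fold between the monocultures numbered 2 in place of 4, and the listed pathway genes 31 in place of 50 there and 13 in place of 21 in MM.1S. In HS-5 coculture cells, the pathway genes past 2-fold numbered 2, but 5 with the same cell limits, 6 with equal weight per cell, 5 with no minimum and 1 with the length trend removed. Over all genes, the main setting put 53.5% past 2-fold between the monocultures, 24.6% in MM.1S and 3.02% in HS-5 cells. The share of CCND2 per kb of transcript was 91.5% in MM.1S monoculture and 92.0% in coculture. As counted, without division by length, the share of CCND2 in MM.1S cells of the coculture was 95.3%. That share as counted was 96.3%, 96.6% and 97.0% with free RNA subtracted, at the higher and at the 20-fold estimate. The share of CCND1 as counted in HS-5 cells of the coculture was 86.7%, and 88.8%, 89.8% and 88.5% under these settings. Cells with a CCND2 UMI in MM.1S were 30.7% and 58.8% at 500 UMIs, and 76.1% and 69.5% without thinning. Cells with a CCND1 UMI in HS-5 were 53.3% and 40.0% at 500 UMIs, and 75.5% in monoculture without thinning. Free RNA in MM.1S cells was 3.08% with genes 20-fold apart in place of 1.82%. The causes of these moves were not tested. Leaving out barcodes found in more than 1 library moved no count of calls. In MM.1S cells of the coculture, genes under 2.27 CPM were under 3 counts.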

Other observations

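The 112 coculture cells with UMIs of both lines, left out above, had a median of 824 UMIs. They held 590 CPM of CCND1 (478 to 719) and 741 CPM of CCND2 (616 to 885), both between the levels of the MM.1S and HS-5 cells of the coculture. CDK6 had 140 CPM (88.6 to 210) in these cells.

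The pseudogenes CCND2P1, CCND3P1 and CDK4P1 had at most 0.479 CPM in any group. CCND2-AS1, which overlaps CCND2 on the opposite strand, had 2.01 CPM in MM.1S monoculture, 1.52 CPM in MM.1S cells of the coculture, 0.326 CPM in HS-5 monoculture and 0 UMIs in HS-5 cells of the coculture. AC008012.1, a protein-coding gene on the same strand, overlaps 989 bases of the longest CCND2 transcript, all outside its last 1000 bases. Its symbol has no counts here. LTO1, on the opposite strand, overlaps 25.3% of the last 1000 bases of CCND1.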
